A study of Homo sapiens with 6 samples.

Results

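The spliceosomal RNAs of the U4, U5, U11, U12 and U4atac particles were followed in PC-3, a human prostate carcinoma line that grows without androgen, with and without menthol, the cooling compound of mint. The 10 genes were RNU4-1, RNU4-2, RNU5A-1, RNU5B-1, RNU5D-1, RNU5E-1, RNU5F-1, RNU11, RNU12 and RNU4ATAC, out of 18404 genes named by probesets with 1 gene symbol. The genes were taken by symbol, and where a gene has several probesets the one to keep was chosen by its mean log2 intensity over the 6 arrays, the highest being kept. Each of the 10 genes had 1 such probeset and none with several symbols, so this measured value decided nothing. Total RNA was measured on Affymetrix whole-transcript arrays. The vehicle group held 3 arrays of cells given ethanol at 0.1% and the menthol group 3 arrays of cells given menthol in ethanol at 0.1%. Both groups grew in DMEM with 10% fetal bovine serum, and each array took label from 300 ng of RNA. The sources used here give neither the menthol dose nor the treatment time. The labels do not say that replicates were separate cultures, so a p-value here covers the spread between arrays alone, and that spread may be technical.

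Small nuclear RNAs are the RNA cores of the spliceosome, the machine that removes introns from pre-mRNA. In the major spliceosome U4 keeps U6 inactive by base pairing until the tri-snRNP joins the intron, and U5 holds the exon ends together through its conserved loop. A second, minor spliceosome removes the rare U12-type introns: U11 recognises the 5′ splice site, U12 the branch site, and U4atac and U6atac stand in for U4 and U6, while U5 serves both machines. Except for U6 and U6atac, these RNAs are made by RNA polymerase II, trimmed with the help of the Integrator complex, exported, loaded with a ring of Sm proteins by the SMN complex and re-imported. They are short, 102 to 150 bases for the 10 genes in the RefSeq gene table of GRCh38.p14. They have no poly(A) tail, and the U5 copies are near-identical, as are the U4 copies, so a probeset can take signal from a sister gene and the separate values of the copies are uncertain.

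Array medians ran from 47.4 to 49.1 intensity units, a closeness that the quantile normalization of the deposited values brings about by itself. The median replicate SD was 0.08 log2 units among vehicle arrays and 0.10 among menthol arrays. The number of arrays limits the precision. The epithelial genes KRT8, KRT18, KRT19, CDH1 and EPCAM were all among the brightest 4601 genes. All 5 of these epithelial genes rose with menthol in limma, by 0.56 (KRT8) to 0.97 (KRT19), with a median log2 fold change of 0.78. Their part in the values of the spliceosomal RNAs was not tested. The mean log2 signal of the leukocyte gene PTPRC was 2.60 with vehicle and 2.69 with menthol. Of 2 measured blood genes and 2 endothelial genes 0 passed in limma. Of 3 fibroblast genes 1 rose, DCN (2.30 to 2.66), and 1 fell, COL3A1 (6.15 to 5.60). The third, COL1A1, was at 7.91 and 7.71 and did not pass. The source of the fibroblast gene signals was not tested. Of 4 luminal prostate genes 1 was measured by a single-symbol probeset, KLK3, at 5.24 and 5.26.

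Of the 10 spliceosomal RNA genes 7 rose with menthol and 0 fell in limma (adjusted p below 0.05 over all 18404 genes), beside 14.6% of all genes higher and 14.5% lower. By mean signal 4 of the 10 were among the dimmest 4601 genes, of which 10.3% rose and 1.91% fell. Another 4 were among the next 4601, of which 13.4% rose and 9% fell, so falls were rarer at these signals. The 7 were RNU4-1, RNU5B-1, RNU5D-1, RNU5E-1, RNU5F-1, RNU11 and RNU4ATAC, and in each of them the 3 menthol arrays all lay above the 3 vehicle arrays, as they did in 23.5% of all genes, while in 21.7% they all lay below. The median log2 fold change of the 10 genes was 0.91, against 0.03 over all genes tested and 0.78 over the 5 epithelial marker genes. The increases were uneven, from 1.35-fold in RNU5F-1 to 9.03-fold in RNU5D-1. Ordered by increase among the 18404 genes, RNU5D-1 held rank 2 and RNU5E-1 rank 5. In bulk RNA a change in the number of cells of a kind and a change of RNA per cell cannot be told apart.

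**Figure D1:**
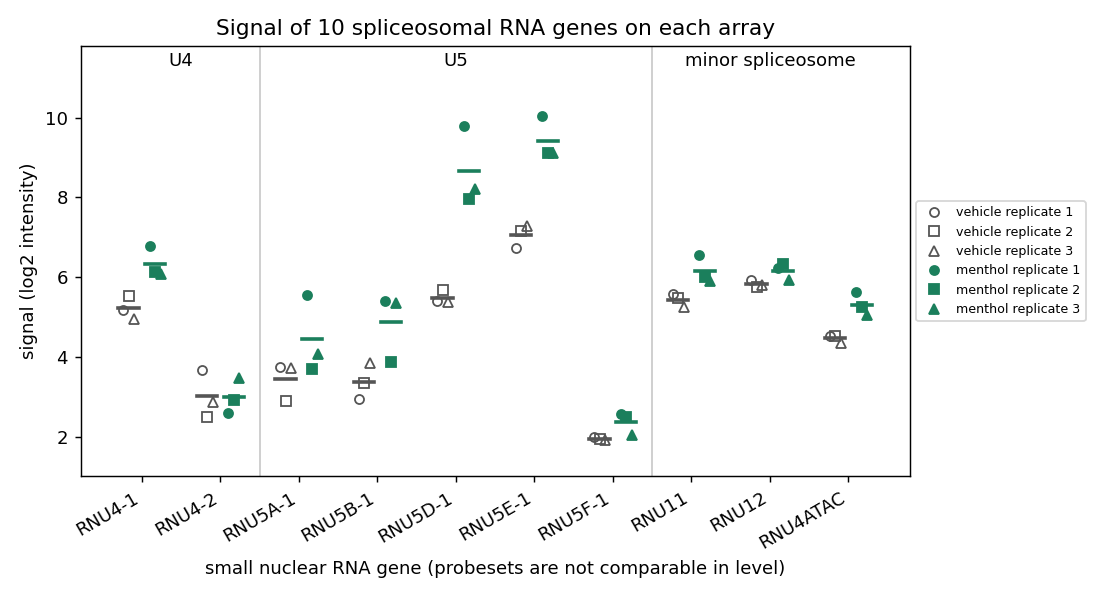
Signal of the 10 RNA genes on each array, in log2 intensity (vertical axis), with open symbols for vehicle, filled symbols for menthol, symbol shape for the replicate number and a bar at each group's mean (3 arrays). The menthol arrays of RNU5D-1 lie between 7.97 and 9.80, all above its vehicle arrays at 5.38 to 5.67, while the groups of RNU4-2, RNU5A-1 and RNU12 overlap. Levels are not comparable between genes.

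U5 RNA contacts both exons during splicing, and RNU5D-1, RNU5E-1 and RNU5B-1 had the largest fold changes of the 10 genes. RNU5D-1 had a log2 signal of 5.40, 5.67 and 5.38 on vehicle replicates 1, 2 and 3, and of 9.80, 7.97 and 8.21 on menthol replicates 1, 2 and 3. In linear intensity units these were 42.3, 51.0 and 41.8 against 893, 250.5 and 297. The lowest menthol array thus stood 2.30 log2 units above the highest vehicle array, a gap larger than the range of either group, which was 0.29 with vehicle and 1.83 with menthol. RNU5D-1 rose by 3.17 ± 0.42 on the log2 scale (SE, n = 3 per group; limma adjusted p = 0.00142), with a 95% interval of 2.19 to 4.16.

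RNU5E-1, another U5 gene of chromosome 1, read 6.73, 7.15 and 7.27 with vehicle and 10.04, 9.11 and 9.12 with menthol. Here too the groups were far apart, with a gap of 1.84 log2 units, and menthol replicate 1 was the highest array. The increase was 2.37 ± 0.26 (SE, n = 3 per group), or 5.18-fold, with a 95% interval of 3.43-fold to 7.84-fold (limma adjusted p = 0.00059). Both RNU5D-1 and RNU5E-1 stayed past the threshold in all 16 alternative settings, with adjusted p up to 0.0159 and 0.0073. Without menthol replicate 1 they rose by 2.60 ± 0.12 and 2.07 ± 0.16.

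The other 3 U5 genes were among the dimmest 4601 genes, whose mean log2 signal was at most 4.75. RNU5B-1 read 2.95, 3.34 and 3.83 with vehicle and 5.40, 3.88 and 5.35 with menthol. Menthol replicate 2 was the low one, just 0.04 above the highest vehicle array. RNU5B-1 rose by 1.50 ± 0.41 (SE, n = 3 per group; limma adjusted p = 0.028, from 0.0022 to 0.0947 over its 15 alternatives). Its call was lost with the intensity trend and robust prior (1.50), with array weights (1.22), without vehicle replicate 1 (1.29) or 2 (1.48) and without menthol replicate 1 (1.24) or 3 (1.26).

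RNU5A-1, a neighbour of RNU5B-1 on chromosome 15, did not pass the threshold. It read 3.75, 2.90 and 3.71 with vehicle and 5.54, 3.70 and 4.08 with menthol. The groups overlapped, since menthol replicate 2 lay between vehicle arrays, and menthol replicate 1 stood well above the rest. The difference was 0.99 ± 0.45 (limma adjusted p = 0.142), with a 95% interval from -0.06 to 2.04, and 0.44 without menthol replicate 1. The interval of RNU5A-1 includes both no change and an increase as large as that of RNU5B-1.

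RNU5F-1 had a signal near the low end of the table, 1.99, 1.94 and 1.92 with vehicle and 2.58, 2.50 and 2.05 with menthol, or 3.77 to 5.96 intensity units where the lowest value of the whole table was 1.57. The groups did not overlap, with a gap of 0.06, and the vehicle arrays spread less (SD 0.04) than those of the median gene. The fitted increase was 0.43 ± 0.13 (SE, n = 3 per group; limma adjusted p = 0.0445, from 0.0024 to 0.126 over its 15 alternatives). The call was lost under quantile normalization (0.33), equal array medians (0.41) and cyclic loess normalization (0.31). It was also lost without any of the vehicle replicates (0.41 to 0.45) and without menthol replicate 1 (0.33) or 2 (0.36). Across the dimmest 4601 genes as a whole 10.3% of genes rose and 1.91% fell, with a median log2 fold change of 0.10.

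RNU5D-1 and RNU5F-1 are neighbours on chromosome 1, and their fitted changes were 3.17 and 0.43. The log2 value of RNU5D-1 minus that of RNU5F-1 within an array was 3.42, 3.73 and 3.47 with vehicle and 7.23, 5.46 and 6.17 with menthol. It was wider on every menthol array, by 2.75 on average (exact permutation test, two-sided p = 0.10, the smallest that 3 against 3 arrays can give, so that this test cannot reach 0.05). RNU5F-1 lies near the low end of the table, where a log2 value is least certain. RNU5E-1 minus RNU5D-1 was 1.33, 1.48 and 1.89 with vehicle and 0.24, 1.15 and 0.90 with menthol (exact permutation p = 0.10, again the smallest possible). RNU5B-1 minus RNU5A-1 overlapped between the groups, with a mean of -0.08 with vehicle and 0.43 with menthol (exact permutation p = 0.50). These differences say nothing of the levels of the genes. With 3 against 3 arrays these tests could not decide whether the U5 copies changed unequally. The 95% intervals of the log2 fold change were 2.19 to 4.16 for RNU5D-1 and 0.12 to 0.74 for RNU5F-1. The part of the probes and their brightness in the different fold changes was not tested.

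U4 RNA, the partner of U6 in the tri-snRNP, is represented by a pair of genes next to each other on chromosome 12. RNU4-1 read 5.18, 5.52 and 4.95 with vehicle and 6.78, 6.13 and 6.09 with menthol. All menthol arrays were above all vehicle arrays, by at least 0.57, and menthol replicate 1 was the highest. RNU4-1 rose by 1.12 ± 0.21 (SE, n = 3 per group), or 2.17-fold, with limma adjusted p = 0.0061, and it passed in all 16 alternatives (adjusted p up to 0.0227).

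RNU4-2 did not pass the threshold. It read 3.67, 2.49 and 2.86 with vehicle and 2.58, 2.93 and 3.47 with menthol, between 5.63 and 12.7 intensity units in all. The groups lay on top of each other, and vehicle replicate 1 was the highest array. The difference was -0.02 ± 0.32 (limma adjusted p = 0.975), with a 95% interval from -0.75 to 0.72, and its sign turned without vehicle replicate 1 (0.31) and without menthol replicate 1 (0.19) or 2 (0.02). RNU4-1 minus RNU4-2 was 1.51, 3.03 and 2.09 log2 units with vehicle and 4.20, 3.21 and 2.62 with menthol. These differences overlapped (exact permutation test, two-sided p = 0.20). With 3 against 3 arrays this test cannot give a p below 0.10, so it could not decide whether the U4 pair changed unequally.

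**Figure D2:**
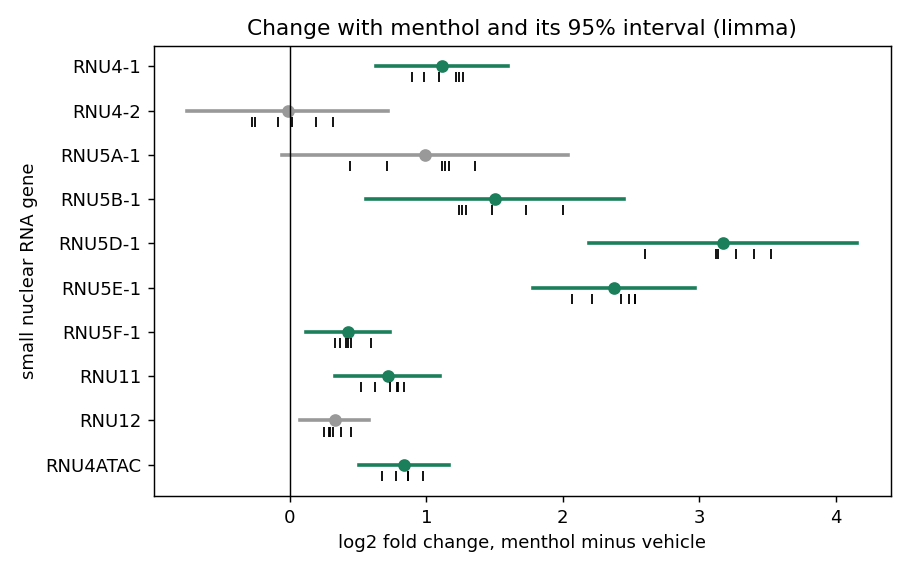
Log2 fold change of each RNA gene, menthol minus vehicle (horizontal axis), as the limma estimate (point) with its 95% interval (bar), in green where the adjusted p was below 0.05 and grey otherwise. The black ticks are the estimates with each array left out in turn. RNU5D-1 and RNU5E-1 lie farthest from 0, at 3.17 and 2.37, and the interval of RNU4-2 runs from -0.75 to 0.72.

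In the minor spliceosome, RNU4ATAC, which encodes the U4 counterpart for U12-type introns, read 4.53, 4.53 and 4.35 with vehicle and 5.63, 5.26 and 5.04 with menthol. The groups were separated by 0.51, and menthol replicate 1 was the highest. RNU4ATAC rose by 0.84 ± 0.14 (SE, n = 3 per group), or 1.79-fold, with limma adjusted p = 0.0042, and passed in all 16 alternatives (adjusted p up to 0.0181).

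RNU11, whose product recognises the 5′ splice site of U12-type introns, read 5.57, 5.47 and 5.26 with vehicle and 6.54, 5.99 and 5.91 with menthol. The groups did not overlap, with a gap of 0.34. RNU11 rose by 0.72 ± 0.17 (SE, n = 3 per group), or 1.64-fold (limma adjusted p = 0.0154, from 0.001 to 0.0542 over its 16 alternatives). Its call was lost without vehicle replicate 3, where the difference was 0.63 ± 0.18.

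RNU12, whose product pairs with the branch site, read 5.93, 5.76 and 5.80 with vehicle and 6.24, 6.32 and 5.92 with menthol. Menthol replicate 3 fell just below vehicle replicate 1, so the groups overlapped by this array alone. The difference was 0.33 ± 0.11 (limma adjusted p = 0.0582, from 0.0096 to 0.161 over its 16 alternatives), with a 95% interval of 0.07 to 0.58, and did not pass. RNU12 passed with the filter on dim genes (0.33), with the intensity trend and robust prior (0.33), with array weights (0.38) and without menthol replicate 3 (0.45). The partner of U4atac, RNU6ATAC, which RNA polymerase III transcribes, read 6.05, 6.18 and 5.92 with vehicle and 6.84, 6.56 and 6.68 with menthol, an increase of 0.64 ± 0.10 (limma adjusted p = 0.0025).

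The menthol arrays differed among themselves in these RNAs. Menthol replicate 1 was the highest array of its group in 8 of the 10 genes, the exceptions being RNU4-2 and RNU12, and its median deviation from the group means was 0.42 log2 units, against -0.18 for menthol replicate 2 and -0.26 for menthol replicate 3. Over all 18404 genes menthol replicate 1 was the highest of its group in 31.8%. It was highest in 8 of 12 other small nuclear RNA genes, in 10 of 16 small Cajal body RNA genes, in 33 of 61 H/ACA box snoRNA genes and in 50 of 115 C/D box snoRNA genes. Without menthol replicate 1, 5 of the 10 genes rose and 0 fell: RNU4-1, RNU4ATAC, RNU5D-1, RNU5E-1 and RNU11, the last by 0.52 ± 0.10. The vehicle arrays had smaller median deviations in the 10 genes, from -0.07 to 0.05. Vehicle replicate 1 was the highest of its group in 5 of the 10. That array was also highest in 34 of 61 H/ACA box genes and in 51 of 115 C/D box genes, much as menthol replicate 1 was. It was highest in 4 of 12 other small nuclear RNA genes, in 7 of 16 small Cajal body RNA genes and in 34.1% of all genes.

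**Figure D3:**
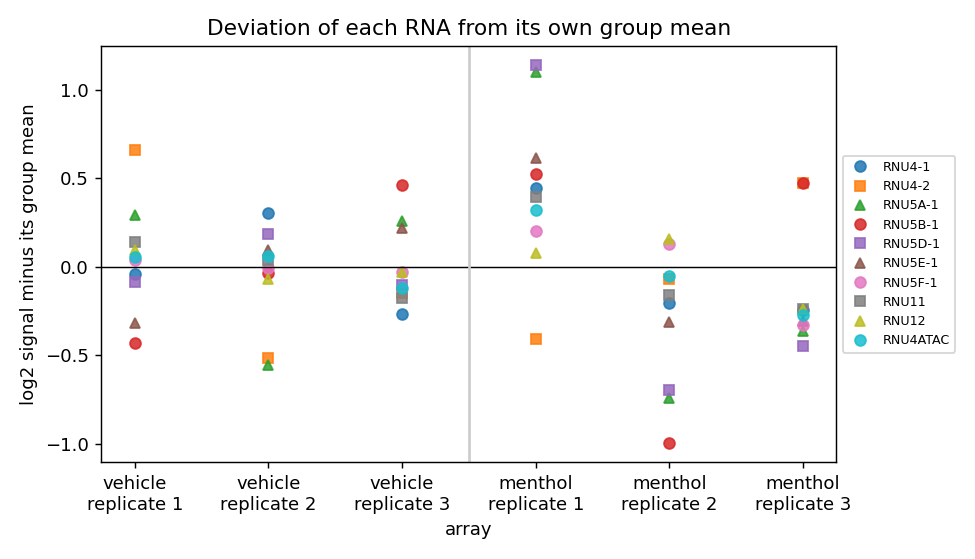
Deviation of each of the 10 RNAs from the mean of its own group (vertical axis, log2 units) on each of the 6 arrays. On menthol replicate 1 the points of 9 of the 10 RNAs lie above 0, and RNU5D-1 reaches 1.14, while RNU4-2 lies at -0.41.

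The genes around these loci were compared through the RefSeq gene table of GRCh38.p14, which was used for neighbours and names alone. Of 16 measured genes that overlap or flank the 10 loci 2 rose and 3 fell in limma, counts near the 14.6% and 14.5% of all genes. SIRT4, a mitochondrial sirtuin gene whose span covers both U4 genes, rose by 0.50 ± 0.13 (SE, n = 3 per group; limma adjusted p = 0.0206), from a mean log2 signal of 4.67 to 5.17. TMEM53, beside RNU5F-1, rose by 0.27. KIF2C, a mitotic kinesin gene next after RNU5D-1, fell by 0.28, and POLDIP3 and CYB5R3, on either side of RNU12, fell by 0.26 and 0.39. CLASP1, whose span holds RNU4ATAC, was at -0.12 ± 0.09 (limma adjusted p = 0.394), and KIAA2013 and NPPB, on either side of RNU5E-1, were at 0.03 and 0.22 and did not pass. The flanking genes of RNU5A-1 and RNU5B-1, PARP16 and IGDCC3, did not pass, at -0.06 and 0.14.

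Of 12 other genes taken by small nuclear RNA symbol, mostly U1 variants, 5 rose (41.7%) and 0 fell in limma. Among all genes 14.6% rose and 14.5% fell. The median log2 fold change of the 12 was 0.34 (median over all genes 0.03). The list was taken by the start of the symbol alone and holds RNU105B and RNU105C, at 0.17 and 0.05, which did not pass. RNVU1-19 rose by 0.76 ± 0.13, RNU6ATAC by 0.64 ± 0.10 and RNVU1-15 by 0.57 ± 0.09. Without vehicle replicate 1, 1 gene of this list fell. U1 genes are near-identical too, so their separate values are uncertain. RNU2-1, the gene of U2 RNA and chosen here after its values were seen, was at 0.42 ± 0.16 and did not pass (limma adjusted p = 0.0847).

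The small nucleolar RNAs, which guide modification of other RNAs, were counted for comparison. Of 115 C/D box genes 4 rose and 40 fell (34.8%), with a median of -0.25. Of 61 H/ACA box genes 4 rose and 9 fell (14.8%, near the 14.5% of all genes), with a median of -0.07. The small Cajal body RNAs guide modification of the spliceosomal RNAs themselves: of 16 measured 4 rose and 1 fell, with a median of 0.12. Among all genes 14.6% rose and 14.5% fell. SCARNA6 rose by 1.45 ± 0.09, from 6.70, 6.80 and 6.72 with vehicle to 8.38, 8.06 and 8.12 with menthol (limma adjusted p = 7.25e-05). SCARNA5 and SCARNA1 rose by 0.95 ± 0.15 and 0.89 ± 0.15. Of the 24 measured genes of the Cajal body list, which holds these RNAs and their proteins, 4 rose (16.7%) and 5 fell (20.8%). In that list 3 genes fell without vehicle replicate 3.

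**Figure D4:**
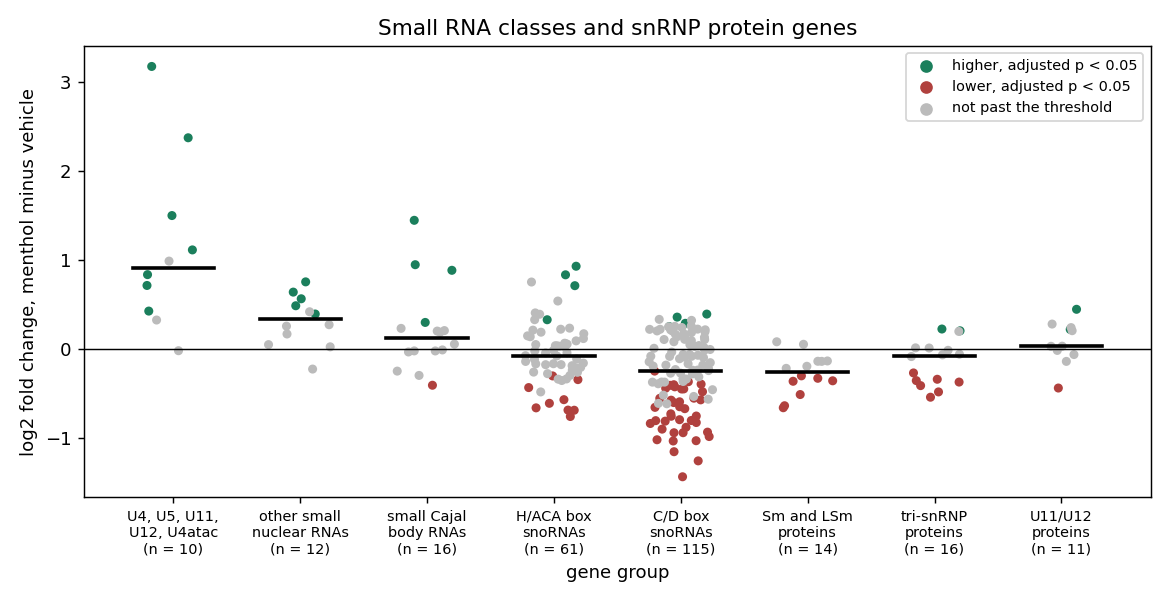
Log2 fold change with menthol (vertical axis) of each gene in 8 groups, with a black bar at the group's median and colour for genes past the threshold in limma. The spliceosomal RNA genes of the first column have the highest median, 0.91, and the C/D box snoRNAs and the Sm and LSm proteins the lowest, -0.25 and -0.26.

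Among the protein partners of the U4 and U5 RNAs more genes fell than rose. Of 16 measured proteins of the U4/U6.U5 tri-snRNP 7 fell (43.8%) and 2 rose (12.5%) in limma, with a median log2 fold change of -0.07. Beside them 14.5% of all genes fell and 14.6% rose. Of the brightest 4601 genes 26.9% fell and 17.2% rose, with a median of -0.05, close to that of the list. USP39, needed for tri-snRNP recruitment, fell by 0.54 ± 0.06, the cyclophilin gene PPIH by 0.48 ± 0.07 and PRPF8, the core scaffold that holds U5, by 0.41 ± 0.07. The genes that rose numbered 0 when vehicle replicate 1 or 2, or menthol replicate 2 or 3, was left out, and 1 without vehicle replicate 3. Of 14 Sm and LSm proteins, which form the rings on these RNAs and on U6, 7 fell (50%) and 0 rose, with a median of -0.26. Among all genes 14.5% fell and 14.6% rose. Most of this list lies among the brightest 4601 genes, of which 26.9% fell and 17.2% rose. LSM2 fell by 0.66 ± 0.09, SNRPE by 0.63 ± 0.08 and SNRPG by 0.51 ± 0.15. SNRPG lost its call in 6 of 16 alternatives, when vehicle replicate 2 or 3 or any 1 menthol replicate was left out and at the threshold of 0.01 (adjusted p up to 0.10). Small Sm genes have near-identical pseudogenes, so their values are uncertain. With vehicle replicate 2 or 3, or menthol replicate 2, left out, 4 genes of the Sm and LSm list fell.

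Of 11 measured proteins of the U11/U12 particle and the minor spliceosome 2 rose (18.2%) and 1 fell (9.09%), with a median of 0.03. These shares are near those of all genes, 14.6% higher and 14.5% lower. CENATAC, which is needed for splicing of a subset of minor introns, rose by 0.45 ± 0.07 and ARMC7 by 0.22 ± 0.07. ARMC7 lost its call in 9 of 16 alternatives, among them equal array medians and each omission of 1 array (adjusted p up to 0.141). SNRNP48, a U11 protein, fell by 0.44 ± 0.09. With vehicle replicate 1 or 2, or menthol replicate 1 or 2, left out, 1 gene of the list rose.

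Genes that make and mature these RNAs changed in both directions. Of 25 genes of small nuclear RNA transcription and 3′ end formation 5 rose (20%) and 6 fell (24%), with a median of -0.05. Beside them, 14.6% of all genes rose and 14.5% fell, and of the brightest 4601 genes 17.2% rose and 26.9% fell. INTS7, an Integrator subunit, rose by 0.65 ± 0.07 and TOE1, a 3′ exonuclease that trims these RNAs, by 0.57 ± 0.07. ZNF143, a factor that binds their distal promoters, fell by 0.56 ± 0.09. The genes that rose numbered 3 without any of the vehicle replicates or without menthol replicate 1 or 2. Of 18 genes of export, Sm ring assembly and import 1 rose (5.56%) and 7 fell (38.9%), with a median of -0.13. CLNS1A, a chaperone of Sm proteins, fell by 0.47 ± 0.06, GEMIN2, a core subunit of the SMN complex, by 0.44 ± 0.07 and the export receptor XPO1 by 0.35 ± 0.07. In that list 4 genes fell under quantile normalization and when vehicle replicate 1 or 3, or menthol replicate 1 or 2, was left out, and 0 rose without vehicle replicate 1.

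The genes whose pattern over the 6 arrays was most like the mean pattern of the 10 RNAs, each scaled to its own spread, were MT1M, TBCC, SNORA49, MIR331 and SUSD4, with Pearson r of 0.997, 0.996, 0.996, 0.995 and 0.995. SNORA49, an H/ACA box snoRNA, read 5.12, 5.03 and 5.01 with vehicle and 6.27, 5.72 and 5.69 with menthol. The metallothionein gene MT1M read 5.00, 4.89 and 4.87 with vehicle and 5.82, 5.41 and 5.43 with menthol. In both genes the menthol arrays were the higher and menthol replicate 1 the highest. The points share the division into groups, so these values describe likeness over 6 arrays and nothing more.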

How the data were processed

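The authors deposited 1 table of intensity values for 32321 probesets on 6 arrays, and the submitters' processing notes name RMA (background correction, quantile normalization and probeset summary). The deposited intensity values ran from 1.57 to 14835 and were therefore linear, so log2 was taken. Quantile normalization gives every array nearly the same distribution, so a shift shared by all RNA would not be seen. The sources used here give no software version.

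Probesets were named from the platform annotation, 19158 with 1 symbol, 1388 with several and 11775 with none. Per gene the probeset with the highest mean was kept. The test was limma's lmFit and eBayes (limma 3.58.1, R 4.3.3), two-sided, with no term besides group. P-values were adjusted by Benjamini-Hochberg over 18404 genes, at a threshold of 0.05. The dimmest and brightest 4601 genes are those by mean log2 signal over 6 arrays. No detection call was used, so dim signals have no background limit.

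The members and lists were chosen with earlier results of these data known. The text names all 10 members, up to 3 called genes with the largest change per list of pathway genes (2 snoRNA classes are given by counts), the 5 nearest genes by pattern, and the neighbours of the loci, which were added after the data were seen. The fit was also checked on simulated data with normal noise and 200 changed genes, fewer than the 5353 called here. It recovered 174 of the 200 at 1.5-fold, with 9 false calls, and 198 at 2-fold, with 20. Permutation tests used scipy 1.17.1, and the pairs of members they compare were not among the planned tests.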

Additional observations from a re-analysis of the deposited data

How the results depend on the processing

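The settings tried were quantile and cyclic loess normalization, equal array medians, a filter at the 25th percentile of signal, the mean of a gene's probesets, each probeset by itself, an intensity trend with a robust prior, array weights, a replicate block, a threshold of 0.01 and leaving out each array. Of 156 member fold changes under them 130 kept their direction and side of the threshold, 18 lost the call, 5 gained it and 3 changed sign. The sign changes were all of RNU4-2, at 0.31 without vehicle replicate 1, 0.19 without menthol replicate 1 and 0.02 without menthol replicate 2, in a range from -0.27 to 0.31 over the 6 omissions. At the threshold of 0.01, 4 of the 10 RNA genes rose, 2841 of all genes passed in place of 5353, and 36 genes of the 8 lists of pathway genes in place of 62. When 1 array was left out, 5 to 7 of the 10 rose, 3839 to 4828 genes passed and 45 to 58 list genes passed. The replicate numbers were not taken as pairs, since deviations of same-numbered arrays correlated at 0.006, -0.007 and 0.091. With the replicate block 8 of the 10 rose, RNU5A-1 being the addition (0.99 ± 0.26, adjusted p = 0.0396, from 0.0396 to 0.324 over its 15 alternatives), 4868 genes passed and 59 list genes passed. No member passed as lower in any alternative. Dim signal limits RNU4-2, RNU5A-1, RNU5B-1 and RNU5F-1, which the filter on dim genes removed, and 3 arrays a group limit the precision of the rest.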

Other observations

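Families in which U12-type introns are known, among them the E2F, MAP kinase, RAF and voltage-gated sodium and calcium channel families, were measured in 29 genes. Of the 29 genes 3 rose (10.3%) and 7 fell (24.1%) in limma, beside 14.6% higher and 14.5% lower among all genes. Their median log2 fold change was 0.06. The p38 kinase gene MAPK13 rose by 0.88 ± 0.06, from 7.41, 7.43 and 7.51 with vehicle to 8.29, 8.35 and 8.35 with menthol. The sodium channel gene SCN9A rose by 0.66 ± 0.07, and the transcription factor gene E2F5 fell by 0.77 ± 0.06, from 8.76, 8.81 and 8.77 to 8.03, 7.94 and 8.07. Without vehicle replicate 1, 3 of these genes fell. A gene-level signal does not measure whether an intron was removed, so splicing itself was not tested.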
